A study of Mus musculus with 10 samples.

Results

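The 768 regions described here were distal open-chromatin regions that E17.5 epicardium and epicardium-derived cells (EPDCs) shared and that were not called in E11.5 epicardium. They were chosen by peak calls alone. The intervals of all 9 peak lists on chromosomes 1 to 19 were merged into 154886 union regions, of which 126783 lay more than 1 kb from every annotated transcription start site. A region was kept when all 3 E17.5 lists and all 3 EPDC lists called it and none of the 3 E11.5 lists did. The members made up 0.496% of the union regions, 0.606% of the distal regions and 2.70% of the 28483 distal regions that all 6 E17.5 and EPDC lists called.

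The study profiled open chromatin by ATAC-seq in sorted cells of embryonic mouse hearts. All groups came from Rosa26tdTomato;Wt1CreERT2/+ embryos whose mothers received tamoxifen at E9.5, so that the tdTomato label marked cells that expressed Wt1 around that time and their descendants. Epicardial cells were sorted as CD31- tdTomato+ PDPN+ at E11.5 (3 libraries, each of 6 pooled hearts) and E17.5 (3 libraries, each of 4 pooled hearts), and EPDCs as CD31- tdTomato+ PDPN- at E12.5 (1 library) and E13.5 (2 libraries, from 4 to 13 hearts by the sample records, of which the study's methods give a narrower range). The EPDC group therefore held 2 stages, neither of which was E17.5, and stage and cell type could not be told apart between EPDC and E17.5 epicardium. The number of hearts of the E12.5 library is not given. Where libraries came from pooled hearts, the spread between them is a spread between pools.

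ATAC-seq cuts DNA where it is free of nucleosomes, and a distal peak marks a stretch that a regulatory protein may occupy, often an enhancer. The epicardium is the mesothelial layer on the surface of the heart. Some of its cells lose their epithelial contacts in an epithelial-to-mesenchymal transition (EMT), enter the myocardium and form fibroblasts and mural cells, while the cells that stay on the surface mature as mesothelium.

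The strongest members are shown first, as 300 bases around the summit in the build GRCm38 (mm10), plus strand. They are the members ranked 2 to 5 by mean percentile. Capitals mark 4 short motifs, on either strand, whose share in the members, of 25 motifs searched, most exceeded that in all distal regions called by the 6 libraries, as a difference in percentage points. These were the E-boxes CATCTG and CAGCTG, which basic helix-loop-helix factors bind, TGACAG, which MEIS factors bind, and TTGCNNAA, which C/EBP factors bind. They were searched as exact letters, and each motif stands in at least 1 of these windows. The member ranked first, near Ptpn2, also held CATCTG and is not shown. The windows are chr5:143572285-143572584 near Fam220a, which held none of the 4 motifs, chr16:57419404-57419703 in an intron of Filip1l, chr4:103793999-103794298 in an intron of Dab1 and chr10:61278007-61278306 near Adamts14.
Fam220a: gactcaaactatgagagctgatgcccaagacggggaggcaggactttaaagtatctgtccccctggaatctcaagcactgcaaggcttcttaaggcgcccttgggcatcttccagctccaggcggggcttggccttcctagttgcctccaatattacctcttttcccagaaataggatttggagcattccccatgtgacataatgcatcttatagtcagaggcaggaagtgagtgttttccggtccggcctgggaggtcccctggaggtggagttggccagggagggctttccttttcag
Filip1l: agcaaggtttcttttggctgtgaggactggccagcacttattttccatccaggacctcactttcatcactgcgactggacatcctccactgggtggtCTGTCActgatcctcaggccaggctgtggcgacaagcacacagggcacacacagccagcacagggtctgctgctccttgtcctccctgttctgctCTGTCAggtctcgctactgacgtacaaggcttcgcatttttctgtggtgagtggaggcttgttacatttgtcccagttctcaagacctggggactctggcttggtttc
Dab1: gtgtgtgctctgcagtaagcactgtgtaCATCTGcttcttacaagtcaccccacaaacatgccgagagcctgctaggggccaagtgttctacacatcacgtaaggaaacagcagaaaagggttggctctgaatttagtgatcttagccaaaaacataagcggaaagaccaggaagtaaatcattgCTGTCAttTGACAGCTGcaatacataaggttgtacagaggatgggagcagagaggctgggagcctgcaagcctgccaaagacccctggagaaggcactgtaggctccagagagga
Adamts14: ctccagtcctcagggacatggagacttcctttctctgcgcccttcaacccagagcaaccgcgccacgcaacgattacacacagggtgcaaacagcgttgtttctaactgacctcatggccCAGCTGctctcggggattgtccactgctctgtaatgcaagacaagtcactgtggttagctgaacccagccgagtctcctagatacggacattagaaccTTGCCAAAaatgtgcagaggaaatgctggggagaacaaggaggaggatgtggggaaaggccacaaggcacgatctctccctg

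In Filip1l, which encodes a filamin-interacting protein, the capitals stand for 2 MEIS motifs. In Dab1, an adaptor of reelin signalling, they stand for 1 CATCTG, 1 CAGCTG and 2 MEIS motifs, of which 1 MEIS motif overlaps the CAGCTG. Beside Adamts14, a procollagen-processing protease, they stand for 1 C/EBP motif and 1 CAGCTG. A match gives letters only and does not show that a factor was bound.

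The labels were checked at the promoters of defining genes. The promoters of all 10 mesothelial markers searched were called in each epicardial library, in E12.5 EPDCs and in 1 E13.5 EPDC library, and 8 in the other, so the number called did not separate the populations. Their summed percentiles were 757 to 842 in the epicardial libraries and 510 to 645 in the EPDC libraries. Upk3b, a mesothelial surface gene, had a peak at the 96.3rd to 98.9th percentile of the peaks of every epicardial library, and at 69.9, 19.7 and 41.4 in the EPDC libraries. Others went the other way against E17.5, as Wt1, the gene of the label, at 88.2 to 89.9 at E17.5 and 92.2 to 96.8 in EPDCs, and Bnc1, a mesothelial zinc finger gene, at 74.2 to 75.4 and 80.6 to 85.7. Of 8 endothelial promoters, 3 or 4 were called in each library, with summed percentiles of 248 to 351. Tek, Egfl7 and Kdr were called in all 9 libraries and Erg in 3, while the defining Pecam1, Cdh5, Tie1 and Emcn had no peak in any. Of 8 leukocyte promoters, 0 to 2 were called in each library. Cd68 was called in 8 of the 9 and stood highest at E17.5 (67.7 to 76.1), while Ptprc, Csf1r and Spi1 had no peak in any. Of 9 cardiomyocyte promoters, 7 or 8 were called at E11.5, 5 or 6 at E17.5 and 3 to 5 in EPDCs, with summed percentiles of 306 to 346, 221 to 353 and 217 to 272. They did not move together. Myl7, of the atrial sarcomere, stood at 53.6 to 69.6 at E17.5 and was called in no EPDC library, while Tnnt2, a cardiac troponin, stood at 55.0 to 62.0 at E17.5 and 74.6 to 80.9 in EPDCs. All 8 smooth muscle and pericyte promoters were called in every library, with summed percentiles of 635 to 659 at E11.5, 478 to 559 at E17.5 and 652 to 673 in EPDCs. The 8 mesenchymal promoters summed to 553 to 586, 611 to 623 and 632 to 673 in the same order. The erythroid Hbb-bs was called at E17.5, at up to 53.2. The part of these other cells in the members' values was not tested.

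The members were weak in E17.5 epicardium and in E12.5 EPDCs and of common strength in E13.5 EPDCs. Peaks were ranked within each library by their −log10 p, and a percentile of 50 is the middle of that library's list. The members' median percentile was 29.3, 30.8 and 27.5 in the E17.5 replicates, 31.9 in E12.5 EPDCs, and 60.9 and 69.3 in the E13.5 EPDC samples. Over all distal regions called by these 6 libraries the medians were 54.5, 62.1, 57.7, 58.3, 61.3 and 68.7, in the same order. So the members' medians were well below those of all shared regions in 4 libraries and close to them in the E13.5 EPDCs. Shared regions that 1 E11.5 list called had medians of 32.1, 37.6, 31.6, 35.6, 56.8 and 66.5, and those that 2 called had 32.1, 38.4, 33.5, 36.5, 52.4 and 62.2. In such bulk samples, fewer cells with a region open and less opening per cell cannot be told apart.

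**Figure D1:**
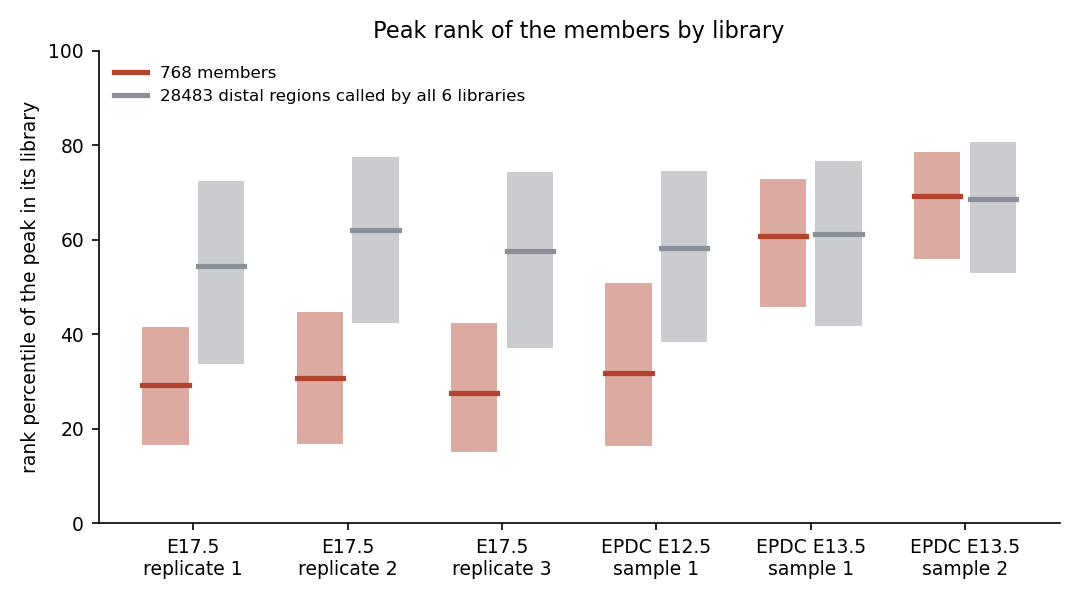
Rank percentile of the peak in its library (y axis) for the 768 members (red) and all 28483 distal regions called by the 6 libraries (grey), by library. Boxes span the interquartile range and thick lines give the median. The members' median lies near 30 in the E17.5 and E12.5 EPDC libraries and at 60.9 and 69.3 in the E13.5 EPDC libraries.

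Behind these ranks lay a median of 21, 30 and 28 fragments at the summit in the E17.5 replicates, 29 in E12.5 EPDCs, and 69 and 184 in E13.5 EPDCs. The genome background was 2.07, 3.61, 3.39, 4.19, 4.26 and 10.9 fragments in that order, so the last library was the deepest. In the E11.5 libraries, a summit on the genome background needed 11 to 13 fragments, or 3.13 to 3.40 times that background, to be called. Each of the 6 libraries exceeded 2 times the highest of those limits in 232 members (30.2%), against 67.6% of all distal regions called by the 6. The caller tests a summit against its local background, which can be higher than that of the genome, and the E11.5 signal at the members was not measured, so a region without a call at E11.5 is not shown to be closed. The nearest E11.5 peak lay at a median of 3422 bp, and within 5 kb of 465 members (60.5%). For regions called only in E17.5 the values were 3398.5 bp and 62.25%, and for those called only in EPDC 5530 bp and 48.1%.

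Both E13.5 libraries ranked a member above the E12.5 library in 714 of 768 (93.0%), against 57.3% of all distal regions called by the 6. On the log2 fold enrichment scale after quantile normalization, the members' median difference of the mean of both E13.5 libraries from the E12.5 library was 0.53, and it was −0.06 over all distal regions called by the 6. It was 0.36 in shared regions that 1 E11.5 list called and 0.28 in those that 2 called. With 1 library at E12.5 this difference has no replicate check. The count of members rests on that library too. Without it 1468 regions met the rule, and with equal numbers of top peaks per list 1200 did.

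EPDC and E17.5 epicardium were compared next, a contrast that the calls in both did not fix. The fit, with limma on log2 fold enrichment over 3 E17.5 and 3 EPDC libraries, tested all 28483 distal regions called by the 6 (Benjamini-Hochberg adjusted p below 0.05). It called 22.8% of them higher in EPDC and 22.4% higher in E17.5. Of the 768 members, 39.2% were higher in EPDC, 59 (7.68%) were higher in E17.5 and 408 were not called. The members' median log2 difference was 0.44, against −0.0033 over all regions tested. The members higher in EPDC had median percentiles of 22.0, 18.8 and 19.5 in the E17.5 replicates and of 49.7, 70.7 and 76.9 in the EPDC libraries, and the 59 had 52.4, 58.8 and 55.7 and then 16.4, 31.4 and 42.7. Without E17.5 replicate 2, 39 members were higher in E17.5, and the share over all regions tested fell to 16.8%. With a replicate block 37 were (16.2% of all), and with fragments over the genome background 89 were (31.9% of all). The EPDC lists also held 252 to 268 rows outside the main chromosomes and peaks of up to 11163 bp. The epicardial lists held no such rows and peaks of up to 3676 bp. The methods name no reason for this. A difference in how the lists were made could not be told apart from the difference between populations.

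**Figure D2:**
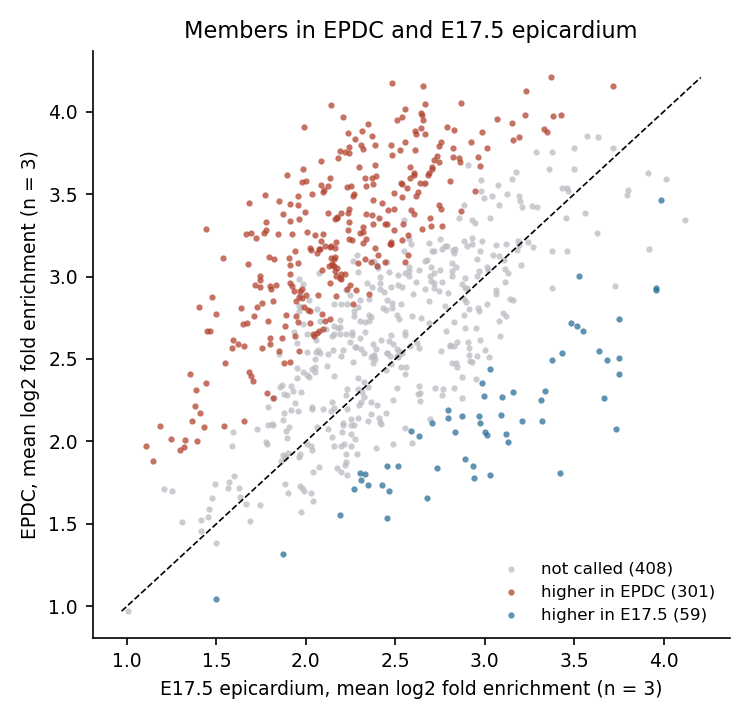
Mean normalized log2 fold enrichment of each member in the 3 EPDC libraries (y axis) and the 3 E17.5 libraries (x axis), coloured by the call of the limma fit. The dashed line marks equal values, with 39.2% of members above it as higher in EPDC and 59 below it as higher in E17.5.

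The balance moved with the number of E11.5 lists that called a region. Among distal regions called by all 6 libraries, 39.2% were higher in EPDC and 7.68% higher in E17.5 where no E11.5 list called them (the members), 35.6% and 11.9% where 1 did, 32.4% and 14.1% where 2 did, and 21.9% and 23.2% where all 3 did. The median log2 difference was 0.44, 0.32, 0.19 and −0.02 in that order. E11.5 and E17.5 libraries are the same sorted population at 2 stages, and the part of the rule's demand for no E11.5 call in this order was not tested. Regions called by all 3 E11.5 lists were also stronger, with a median of the mean fold enrichment of 8.90 against 6.67 in the members, while it was 6.60 and 6.69 in regions called by 1 or 2.

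**Figure D3:**
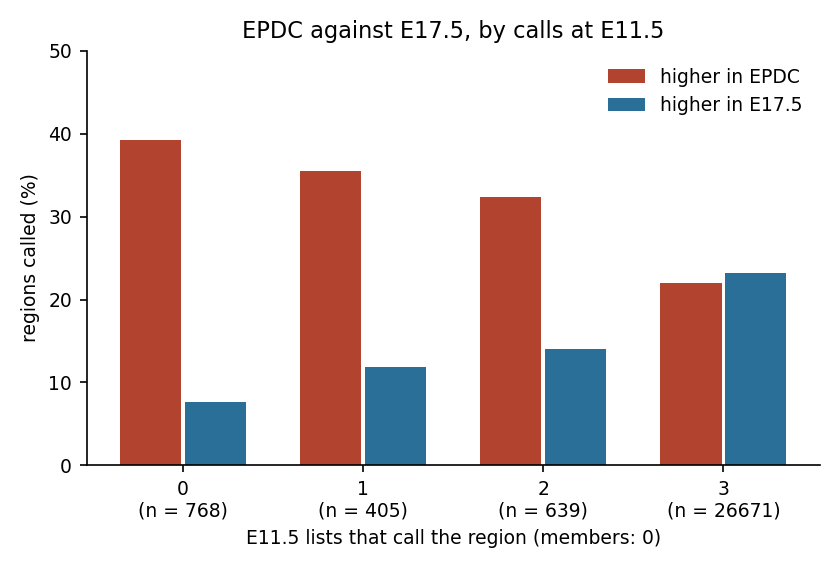
Share of distal regions called by all 6 libraries that were higher in EPDC (red) or in E17.5 (blue), in percent, by the number of E11.5 lists that call the region (0 for the members), with the number of regions below each pair. The red bars fall from 39.2% to 21.9% and the blue bars rise from 7.68% to 23.2%.

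The order of the members by strength was only weakly shared between the populations. Spearman's rank correlation of the percentiles over the 768 members was 0.69 to 0.77 between E17.5 replicates, 0.70 to 0.94 between EPDC libraries and 0.01 to 0.27 between an E17.5 and an EPDC library. Over all regions called by the 6 it was higher throughout, at 0.92 to 0.95, 0.85 to 0.96 and 0.31 to 0.48 in the same order. These are descriptions over regions that share libraries, and carry no test. The members' percentiles also spanned a narrower range, with quartiles of 16.5 and 41.5 in E17.5 replicate 1, against 33.6 and 72.3 over all regions. The part of this range in the lower correlations was not tested. The summits of the 2 populations nevertheless lay close together, within 50 bp in 522 members (68.0%), against 70.3% of all regions called by the 6.

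Of the 10 members of highest mean rank, 6 were higher in EPDC and none was higher in E17.5. In a fit to regions above the median level, 56.0% of the 166 members there were higher in EPDC and 7.83% higher in E17.5, against 23.8% and 23.1% of all such regions, so 6 of 10 is close to the share of strong members. That level is a mean over all 6 libraries, including the E13.5 EPDCs, where the members stood highest. The part of this filter in the share was not tested. The region 21.5 kb upstream of Ptpn2, a phosphatase that restrains cytokine signalling, had 86, 182 and 124 fragments at E17.5 and 73, 171 and 458 in EPDCs. Its percentiles ran from 70.3 to 87.8 and the populations overlapped (log2 difference −0.27 ± 0.13 SE, limma adjusted p = 0.104). The Filip1l region had 122, 180 and 140 fragments at E17.5 and 116, 213 and 530 in EPDCs, at percentiles of 71.5 to 85.2, and also overlapped (0.04 ± 0.19, adjusted p = 0.869). An intronic region of Arpc1b, a subunit of the actin-nucleating Arp2/3 complex, stood at 80.1 to 82.9 at E17.5, at 57.8 in E12.5 EPDCs and at 79.6 and 80.4 in E13.5 EPDCs.

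The Fam220a region had 58, 73 and 82 fragments at E17.5 and 97, 290 and 643 in EPDCs (log2 difference 0.57 ± 0.15 SE, limma adjusted p = 0.00699), with every EPDC percentile above every E17.5 percentile. The Dab1 region stood at 56.4 to 70.8 at E17.5 and 83.8 to 94.5 in EPDCs (0.44 ± 0.15, adjusted p = 0.026). Beside Adamts14 the values were 59.3 to 73.5 and 78.2 to 95.7 (0.87 ± 0.21, adjusted p = 0.00448). A region in an intron of Mmp2, a gelatinase, whose nearest start site belongs to Lpcat2, stood at 60.4 to 71.0 and 71.7 to 88.5 (0.78 ± 0.21, adjusted p = 0.00793). A region 203 kb downstream of the start of Bnc2, a zinc finger gene expressed in mesothelium and fibroblasts, stood at 59.1 to 66.8 at E17.5 and at 79.0 to 89.7 in EPDCs (1.20 ± 0.17, adjusted p = 0.000122). The region upstream of Col13a1, a transmembrane collagen, held the broadest E17.5 range, 42.0 to 73.0, below 82.5 to 94.6 in EPDCs (0.84 ± 0.22, adjusted p = 0.00746). Srgap1, which acts downstream of Slit and Robo in migrating cells, had 68.2 to 70.6 and then 69.2, 92.0 and 91.5, and was not called.

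**Figure D4:**
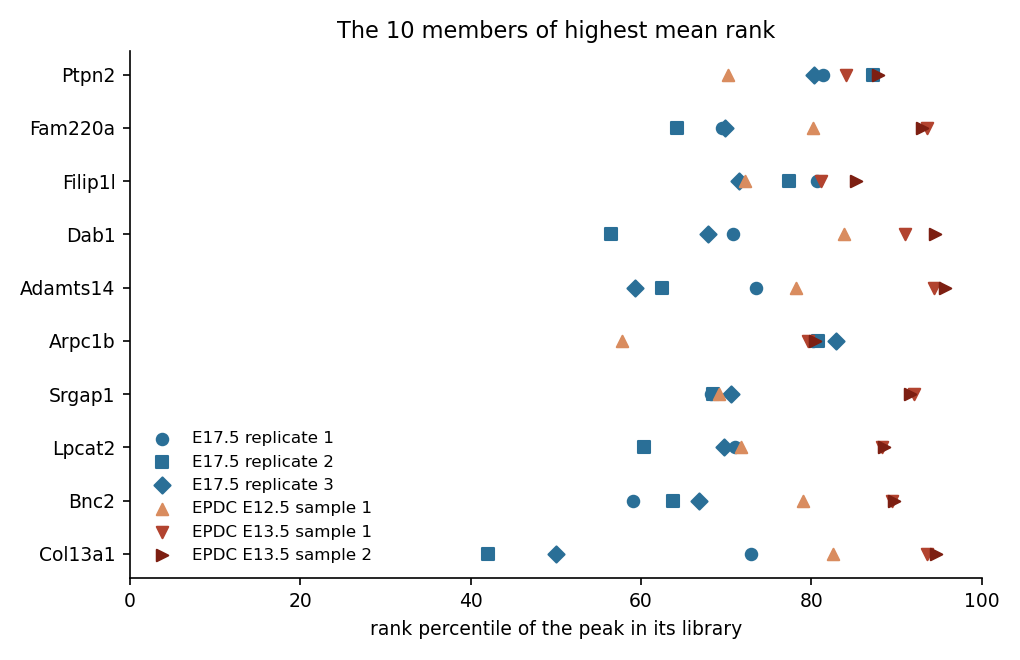
Rank percentile of the peak in its library (x axis) for the 10 members of highest mean rank, named by nearest gene, in 3 E17.5 libraries (blue) and 3 EPDC libraries (orange for E12.5, reds for E13.5). Both E13.5 points lie right of all blue points for Fam220a, Filip1l, Dab1, Adamts14, Srgap1, Lpcat2, Bnc2 and Col13a1, and for Ptpn2 and Arpc1b they do not.

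The 5 members of largest difference towards EPDC were near the limit of calling at E17.5. In an intron of Hmcn1, an extracellular matrix protein of the basement membrane, there were 12, 13 and 20 fragments at E17.5 and 130, 199 and 416 in EPDCs (log2 difference 1.92 ± 0.22 SE, limma adjusted p = 3.64e-05). An untranslated exon of Cfap100 had 16, 15 and 18 and then 74, 176 and 411 fragments (1.90 ± 0.22). An intron of 4930562C15Rik had 13, 24 and 21 and then 47, 75 and 196 (1.85 ± 0.18). Tgfbr2, the type II receptor that TGF-beta ligands bind, held in an intron a region with 11, 16 and 13 fragments at E17.5 and 66, 71 and 205 in EPDCs (1.76 ± 0.19, adjusted p = 2.87e-05). An intron of Cdh13, a cadherin without a cytoplasmic tail, had 15, 18 and 19 and then 65, 123 and 334 (1.76 ± 0.21). In these 5 all E12.5 EPDC percentiles, 57.5 to 85.9, were above all E17.5 percentiles, 0.2 to 23.1. The 5 were chosen by their difference between the groups, E12.5 library included, and that choice favours such a separation.

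Towards E17.5 the largest difference was 122 kb upstream of Lhx8, a LIM homeobox gene, at percentiles of 86.0, 86.2 and 82.1 at E17.5 and of 0.9, 24.3 and 42.5 in EPDCs (log2 difference −1.66 ± 0.27 SE, limma adjusted p = 0.00035). The region near Snx5, a sorting nexin, had 40, 53 and 54 and then 15, 17 and 66 fragments (−1.62 ± 0.19). A region 342 kb from Osr1, a zinc finger gene of intermediate mesoderm, had 33, 59 and 56 and then 14, 28 and 88 (−1.41 ± 0.28). A region in Nutf2 nearest to Edc4, an mRNA decapping scaffold, stood at 56.2 to 75.4 and then 14.0 to 50.5 (−1.34 ± 0.23), and one 109 kb from Prex1, a Rac exchange factor, at 72.9 to 85.6 and 41.1 to 71.7 (−1.24 ± 0.18). In all 5, every E17.5 percentile was above every EPDC percentile, a separation that the choice by largest difference again favours.

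A pair of genes were nearest to 4 members each, and their members did not move as a block. Around Foxl1, a forkhead gene of gut and other mesenchyme, regions 24.7 and 53.7 kb downstream were higher in EPDC (log2 differences 1.58 ± 0.19 and 0.98 ± 0.26), the one 159 kb downstream was higher in E17.5 (−0.78 ± 0.21), and the one at 68.3 kb was not called (−0.45 ± 0.29). All 4 lay in introns of the gene model Gm20388. Around Prickle1, a planar polarity gene, the regions at 7.05 and 34.5 kb were higher in EPDC (0.81 ± 0.21 and 0.77 ± 0.26), that at 94.4 kb was higher in E17.5 (−0.53 ± 0.19), and that at 163 kb was not called (0.97 ± 0.38, adjusted p = 0.0519). Of the 682 nearest genes, 608 had 1 member.

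Lists of genes by role were counted next by nearest start site, which does not show that a region acts on that gene. Mesothelial genes were nearest to 5 members, and 4 of these were higher in EPDC and none in E17.5, with a median log2 difference of 1.04. The region 209 kb upstream of Tbx18, an epicardial T-box factor, had 21, 24 and 18 fragments at E17.5 and 113, 212 and 363 in EPDCs (log2 difference 1.69 ± 0.20, limma adjusted p = 4.41e-05). The other members were nearest to Bnc2, Efna5, Ezr and Cdh11. Over all 148 regions near mesothelial genes that the 6 libraries called, 51 were higher in EPDC and 38 in E17.5 (median 0.10).

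Fibroblast and matrix genes were nearest to 11 members, of which 6 were higher in EPDC and none in E17.5 (median 0.57), while of all 271 regions near these genes 62 were higher in EPDC and 47 in E17.5. Beside Thbs1, an activator of latent TGF-beta, the region had 66, 153 and 119 fragments at E17.5 and 26, 60 and 229 in EPDCs (−0.36 ± 0.21, adjusted p = 0.171). In an intron of Col4a2, nearest to Col4a1, which encodes the basement membrane collagen IV, there were 31, 50 and 53 and then 75, 190 and 589 fragments (0.57 ± 0.19, adjusted p = 0.0239). The remaining genes were Dpt, Sparc, Thbs2, Col4a2, Eln, Fn1, Tnc, Col3a1 and Col1a2. Of the 8 mesenchymal marker promoters, only that of Postn, the fibroblast matricellular gene periostin, had no peak in any E11.5 library, and it was singled out after its values were seen. It stood at 39.2 to 45.2 at E17.5 and at 67.9, 75.9 and 79.0 in EPDCs. Others went the other way, as Pdgfra, a receptor of fibroblasts, which stood at 66.7 to 73.7 at E17.5 and 51.4 to 60.6 in EPDCs.

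Actin and adhesion genes held the most, 17 members near 14 genes, or 2.21% of the members against 1.07% of all regions called by the 6. Of these 6 were higher in EPDC, 11 were not called, and the median was 0.24, while of all 305 shared regions near these genes 65 (21.3%) were higher in EPDC and 69 in E17.5. In Itga9, an integrin subunit, the intronic region stood at 31.6 to 52.1 at E17.5 and at 50.8, 77.3 and 77.8 in EPDCs, and was not called (0.24 ± 0.20). PDGF and FGF pathway genes had 6 members, of which 2 were higher in EPDC, beside 27 of all 100 shared regions near these genes (25 were higher in E17.5), and 3 of the 6 lay near Spry2, a feedback inhibitor of FGF signalling. Its leading regions stood at 64.0 to 70.6 and 42.0 to 76.8, and at 39.1 to 55.4 and 52.9 to 87.0, and neither was called.

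Among signalling and transcription factors, TGF-beta and BMP genes had 3 members (2 near Tgfbr2), of which 2 were higher in EPDC, as were 55 of 234 shared regions (23.5%) near these genes, while 44 were higher in E17.5. The list took 0.391% of the members and 0.822% of all regions called by the 6. Sox9, a factor of cartilage and valve mesenchyme, had both members of the EMT factor list, and 455 kb upstream of it the region stood at 48.8 to 51.6 at E17.5 and at 73.2, 87.6 and 90.3 in EPDCs (0.90 ± 0.16, adjusted p = 0.000764). The other Sox9 member was not called (−0.03 ± 0.15), and of all 74 shared regions near EMT factors 16 were higher in EPDC and 20 in E17.5. Both members of the AP-1 list were higher in EPDC, as were 12 of 39 shared regions (30.8%) near these genes, while 4 were higher in E17.5, and the member near Fosl2, an AP-1 subunit, stood at 35.3 to 38.9 and 65.5 to 82.9 (1.19 ± 0.19, adjusted p = 0.000265). Both nuclear factor I members were higher in EPDC, as were 21 of 62 shared regions (33.9%) near these genes, while 11 were higher in E17.5, and the member in Nfix had 0.60 ± 0.23 (adjusted p = 0.0461). None of the 2 Kruppel-like factor members (Klf6, −0.29 ± 0.21), the 2 Hippo members (Vgll3, −0.08 ± 0.19) and the 3 Wnt members (Tcf7l1, 0.27 ± 0.21) was called. Of all shared regions near these genes, 18 of 78, 17 of 63 and, for Wnt, 28 (18.5%) were higher in EPDC, and 16, 7 and 30 were higher in E17.5.

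Of the remaining lists, the 4 smooth muscle and pericyte members had 1 call in each direction, and that in Cspg4, the pericyte proteoglycan NG2, was not called (−0.23 ± 0.23). Proteases and their inhibitors had 3 members, of which 1 was higher in EPDC. Of the 2 glucocorticoid and clock members, that near Rora, a nuclear receptor of the clock, was higher in EPDC (0.95 ± 0.28), and that near Dusp1, a phosphatase of MAP kinases, was not called (0.46 ± 0.24). Of all shared regions near smooth muscle, protease and glucocorticoid genes, 24 of 94, 22 of 63 and 20 of 77 were higher in EPDC, and 22, 10 and 19 were higher in E17.5. Both endothelial members lay near Pecam1, whose promoter had no peak in any library, and that named by rank had 17, 55 and 41 and then 26, 46 and 169 fragments (−0.05 ± 0.20). Neither was called, while of all 61 shared regions near endothelial genes 9 were higher in EPDC and 12 in E17.5. No member lay nearest to a gene of the cardiomyocyte, leukocyte or cell cycle lists, to which 30, 19 and 27 of all regions called by the 6 belonged. Since the members made up 2.70% of all those regions, that share of each list is below 1 region, and nothing is read from these counts of 0.

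On fold enrichment, the promoters of the members' nearest genes were called about as often as all promoters tested. This comparison was added after the data were seen, and it covered only promoters with a peak in all 9 lists. Promoters without a peak at E11.5, as that of Postn, were left out, so it does not show how those behaved. Of 580 such promoters tested with limma, 43 (7.41%) were higher and 44 (7.59%) lower at E17.5 than at E11.5, against 7.59% and 6.96% of all 14128 promoters tested. In EPDC against E11.5, 26 (4.48%) were higher and 28 (4.83%) lower, against 5.16% and 4.84%. On the depth-normalized score, 90 (15.5%) were higher and 51 (8.79%) lower in EPDC, against 10.9% and 11.1% of all promoters, while at E17.5 13.8% were higher and 15.2% lower, against 1907 and 1909 of all 14128. The counts on fold enrichment moved by over 1.5 times with the library left out. At E17.5, 27 were higher without E11.5 replicate 1 or without E17.5 replicate 3, and 28 and 29 were lower without E11.5 replicate 2 and without E17.5 replicate 3. In EPDC, 11 were higher without E11.5 replicate 2 or 3 and 10 without E13.5 sample 1, and 17 and 13 were lower without E11.5 replicate 2 and without E13.5 sample 1. The share over all promoters fell alongside. At E17.5 it fell to 5.17% and 4.74% higher, against 4.66% of the nearest genes' promoters in both, and to 4.37% and 4.73% lower, against 4.83% and 29 of 580. In EPDC it fell to 2.94% and 2.89% lower, against 2.93% and 2.24%, and for the calls higher in EPDC to 2.58% and 2.98% without E11.5 replicate 2 or 3 and to 2.14% without E13.5 sample 1, against 1.90%, 1.90% and 1.72% of the nearest genes' promoters.

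The sequence of the members differed from that of other shared regions, as a description with no test. CATCTG stood in 241 members, 31.4% (Wilson 95% interval 28.2 to 34.7), against 26.1% of all distal regions called by the 6, 25.1% of regions called only in E17.5 and 29.6% of those called only in EPDC. MEIS motifs stood in 32.4% (29.2 to 35.8), against 28.1%, 22.4% and 35.1%. CAGCTG stood in 33.9% (30.6 to 37.3), against 30.1%, 21.3% and 32.1%. C/EBP motifs stood in 16.7% (14.2 to 19.5), against 12.6% and 19.1%, and in 568 of 4211 EPDC-only regions. By ratio to all regions called by the 6, other and less frequent motifs stood above these 4, among them CATATG (7.94%, 6.23 to 10.1, against 4.77%) and the CArG box of serum response factor (2.86%, 1.90 to 4.30, against 1.67%). In a longer window the excess of C/EBP over all regions called by the 6 fell from 4.10 to 2.497 percentage points and that of CAGCTG from 3.71 to 2.10, below CATATG (4.83) and SOX motifs, AACAAT (3.01). In the main window, the first 3 were nearer to the share of EPDC-only regions, and C/EBP lay between the populations. The motifs overlap each other: a CAGCTG shared letters with a MEIS motif in 14 members, and a CATCTG with one in 7.

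Some motifs were scarcer in the members than in all regions called by the 6. They included those of CTCF (3.26% against 7.49%), of Kruppel-like and SP factors (2.73% against 7.63%) and of WT1 (1.56% against 4.37%), whose letters are mostly G and C, and that of TEAD factors, GGAATG (192 of 768 members against 28.5%). The first 3 were also scarce in E17.5-only regions (3.68%, 3.88% and 1.93%) and in EPDC-only regions (3.99%, 3.70% and 2.02%). The members' median GC content was 47.8%, against 50.2% of all regions called by the 6. AP-1 motifs, TGANTCA, stood in 20.1% of members, against 23.0% of all regions called by the 6, 34.1% of E17.5-only and 11.2% of EPDC-only regions, so the members lay between the populations. GATA motifs, AGATAA, stood in 16.3%, below the 22.3% of all regions called by the 6, the 22.4% of E17.5-only and the 22.8% of EPDC-only regions.

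**Figure D5:**
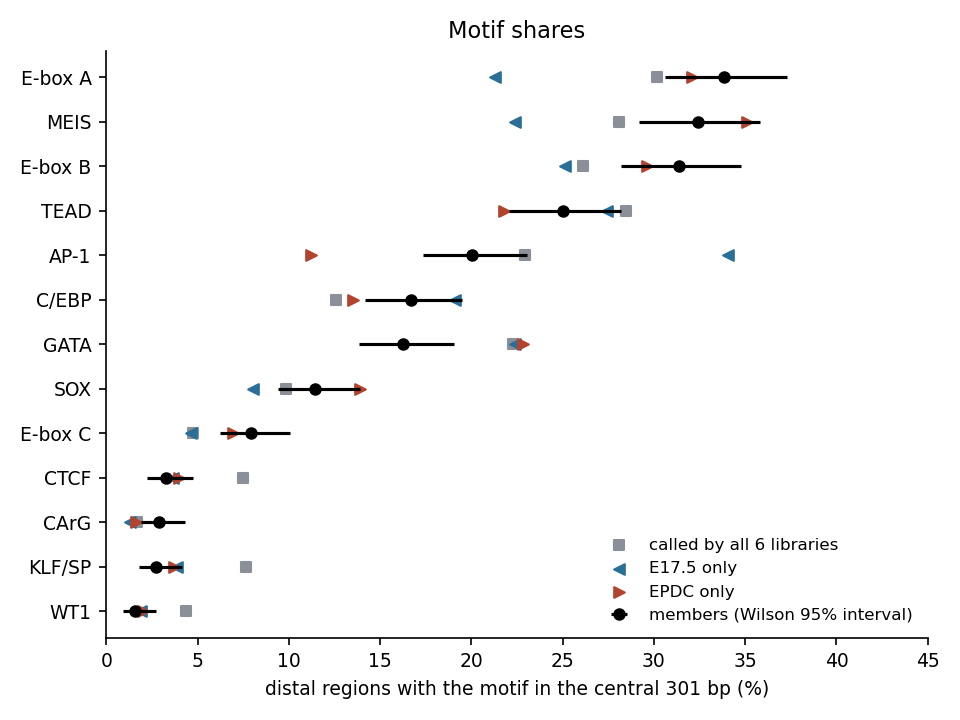
Share of distal regions with each motif in the window around the summit, in percent (x axis), for members (black, Wilson 95% interval), all regions called by the 6 libraries (grey squares), E17.5-only regions (blue) and EPDC-only regions (red). E-box A is CAGCTG, E-box B CATCTG and E-box C CATATG. AP-1 shows the widest gap, 34.1% in E17.5-only against 11.2% in EPDC-only regions, with the members at 20.1%.

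Within the members, the shares of CAGCTG and AP-1 motifs differed between the calls, as a description with no test, and these 2 were singled out after their values were seen. CAGCTG stood in 40.2% of the members higher in EPDC and in 15.3% (Wilson 95% interval 8.2 to 26.5) of the 59 higher in E17.5, and AP-1 motifs in 12.3% and 27.1% (17.4 to 39.6). Over all regions called by the 6, the same shares were 38.5% and 24.6% for CAGCTG and 15.5% and 34.6% for AP-1, so both motifs differed in the same direction there. TEAD motifs stood in 24.9% and 25.4% of the members higher in EPDC and in E17.5 (27.6% and 31.1% over all regions). CATCTG stood in 31.2% and 20.3% of these members (28.8% and 24.8% over all regions). MEIS motifs stood in 36.5% and 28.8% (33.7% and 24.7% over all regions). The members' intervals of CATCTG (26.3 to 36.7 and 12.04 to 32.3) and of MEIS motifs (31.3 to 42.1 and 18.8 to 41.4) overlapped. With 59 members higher in E17.5, this overlap does not show equal shares, and both motifs differed in the same direction over all regions. C/EBP motifs stood in 17.9% and 27.1% of the members (11.9% and 13.45% over all regions), also with overlapping intervals in the members.

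In the genome the members lay mainly in introns (411, or 53.5%) and between genes (328, or 42.7%), close to the 50.7% and 44.1% of all regions called by the 6, with 9 in coding exons, 12 in untranslated exons and 8 in exons of non-coding transcripts. The median distance to the nearest protein-coding start site was 27.6 kb, against 23.1 kb for all regions called by the 6. The median width was 781 bp, against 911 bp. Another member lay within 50 kb of 86 members. At the distance limit, the nearest members inside were beside Foxs1 (1033 bp, mean percentile 39.2) and Cited2 (1100 bp, 42.3), and the nearest regions outside were beside Dctn6 (996 bp, 35.5) and Daam1 (992 bp, 47.5). In all, 86 regions met the calls of the rule but lay too close to a start site.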

How the data were processed

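The data were MACS2 peak lists of 9 ATAC-seq libraries from 10 sequenced samples, since 1 E13.5 EPDC list joins 2 technical replicates. According to the methods the authors aligned reads to mm10, removed duplicate, multimapped, blacklisted and mitochondrial reads, and called peaks on read pairs; the submitters' processing notes name MACS2 2.2.9.1. The deposited values are the fold enrichment of a summit over local background, a ratio, and a −log10 p and −log10 q against that background, per the labels and the methods not normalized between libraries. The smallest −log10 q in the lists was 2.0.

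The members and lists were chosen with earlier results of these data known. Start sites came from GENCODE M21, and sequence from the RefSeq copy of GRCm38.p6. Whole fragments at a summit were solved from the deposited fold enrichment and −log10 p, which was tested on simulated summits, and covers counting error only. Fold enrichment was quantile-normalized and fitted with limma 3.58.1 in R 4.3.3, with Benjamini-Hochberg adjustment, and tested on simulated data. Regions were counted with Python 3.11.15, on overlaps of at least 1 bp. Each motif was searched in 301 bp around the strongest summit on both strands.

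Named regions were the 10 members of highest mean percentile, genes with 4 or more members, the leading member of each gene list (and a second where a list held 5), the 5 largest called differences in each direction, and those nearest the 1 kb limit; the leading protease member is not reported here. The number of peaks per list ranged from 75234 to 109307. Alternatives were other thresholds, windows, scalings and measures, libraries left out and a replicate block.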

Additional observations from a re-analysis of the deposited data

How the results depend on the processing

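The number of members was within 1.5 times 768 except with equal numbers of top peaks (1200) and without E12.5 EPDCs (1468), and leaving out a library gave 782 to 1468. Among regions above the median level, with 166 members, 93 were higher in EPDC and 13 in E17.5 (23.8% and 23.1% of all regions tested). Leaving out a library gave 218 to 449 members higher in EPDC and 39 to 57 higher in E17.5. Of all 28483 regions tested, 4977 were higher in EPDC without E13.5 sample 1 (218 members) and 6984 (24.5%) without E12.5 (449), and 16.8% were higher in E17.5 without E17.5 replicate 2 (39). With fragments over the genome background, an alternative chosen after the data were seen, 402 were higher in EPDC and 89 in E17.5 (30.7% and 31.9% of all regions tested), and 89 again with median centring. Same-numbered libraries correlated at 0.02 to 0.07 in their deviations from the group means, and differently numbered ones at −0.09 to 0.04. Whether the replicate numbers pair the samples was not tested. The fit with a replicate block called 237 members higher in EPDC and 37 higher in E17.5 (16.8% and 16.2% of all). For promoters of nearest genes, the depth-normalized score gave 80 higher and 88 lower at E17.5 (1907 and 1909 of all 14128), and 90 (15.5%) higher and 51 (8.79%) lower in EPDC (10.9% and 11.1% of all). Leaving out a library gave 27 to 49 and 28 to 56 at E17.5, and 10 to 28 and 13 to 34 in EPDC, beside 669 to 1339 and 617 to 1199, and 303 to 768 and 409 to 760, of all promoters. The 4 leading motif excesses kept their sign in a shorter and a longer window, and their order changed in the shorter one. A summit on the genome background needed 9 to 24 fragments by library to be called, and an uncalled region is not shown to be closed.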
